A study of Mus musculus with 14 samples.

Results

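Secretory cells of the mouse colon and ileum were compared through their RNA, in 3 libraries of GFP-positive cells sorted from colonic crypts and 3 sorted from ileal crypts, of 14 libraries in the series. The members were the libraries titled Colon GFP+ and Ileum GFP+, here called colon GFP 1 to 3 and ileum GFP 1 to 3. They came from Atoh1GFP/GFP mice, whose Atoh1 alleles encode a functional fusion of ATOH1 with GFP and which were described as phenotypically normal. Cells were gated as live by exclusion of 7AAD, and the age of these mice is not stated in the labels. The other 8 libraries were of whole crypts from mice of 6 to 8 weeks: Atoh1lox/lox;VilCreERT2 (KO) and their Atoh1lox/WT;VilCreERT2 littermates (WT), with 2 libraries for each genotype and tissue. VilCreERT2 is an inducible Cre recombinase under the villin promoter, which is active throughout the intestinal epithelium, and all 8 crypt libraries carry it while no Cre is given for the mice of the sorted cells.

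ATOH1 is a basic helix-loop-helix transcription factor that commits crypt progenitors to the secretory lineage, from which goblet, Paneth and enteroendocrine cells arise. Goblet cells secrete the gel-forming mucin MUC2 and the proteins that assemble it into mucus. Paneth cells lie at the base of small-intestinal crypts and release lysozyme and alpha-defensins, and the healthy colon lacks typical Paneth cells and holds deep crypt secretory cells in their place. Hormone-producing enteroendocrine cells also differ along the gut. The sort therefore took a mixture of cells whose makeup can differ between regions, and in such bulk samples fewer cells of a type and less RNA per cell cannot be told apart.

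Gene counts were 7478418 to 12991891 per sorted library, with ileum GFP 1 the lowest. Mitochondrial ribosomal RNA took 30.02 to 44.88% of gene counts in the 6 sorted libraries and 0.14 to 0.22% in the 8 crypt libraries. Levels are in CPM, read counts brought to a common library size by the TMM-scaled gene total, and triplets of CPM follow the order of libraries 1, 2 and 3. A gene is called at an edgeR adjusted p under 0.05, and ± after a log2 fold change of colon over ileum is its standard error. Nothing in the labels ties a library to an animal, and the tests cover the spread between these libraries alone. Atoh1 itself was at 295, 231 and 264 CPM in colon GFP 1, 2 and 3 against 195, 323 and 296 CPM in ileum GFP 1, 2 and 3, with overlapping groups (log2 fold change -0.05 ± 0.20, edgeR adjusted p = 0.9). The goblet mucus genes summed to 75139 to 80648 CPM in colon and 59486 to 156466 CPM in ileum sorted cells, against 12458 to 31724 CPM in the 4 WT crypt libraries.

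Libraries of each arm differed in 3 ways that touch the results. Colon GFP 1 and ileum GFP 2 held Y-linked transcripts (a sum of 205 and 201 CPM over Ddx3y, Eif2s3y, Kdm5d and Uty) and Xist at 5 and 4.41 CPM. The other 4 held Xist at 1698 to 10797 CPM and Y-linked transcripts at no more than 0.299 CPM, so each arm had 1 male-like and 2 female-like libraries, and the spread within an arm is not technical alone. The same 2 libraries held transcripts of the other region. Genes restricted to ileum were chosen from crypt libraries alone (25 genes called higher in ileum WT with a log2 fold change beyond 5, at 10 CPM or more there and under 0.5 CPM in every colon crypt library). Their median level was 5.64, 1.10 and 0.00899% of the ileum GFP mean in colon GFP 1, 2 and 3. Among the 14 of them at 10 CPM or more in ileum GFP, the medians were 3.56, 0.103 and 0.0193%, and all 14 were highest in colon GFP 1. In the reverse direction, 38 colon-restricted genes had medians of 0, 2.44 and 0% of the colon GFP mean in ileum GFP 1, 2 and 3. Ileum GFP 1 stood apart on other measures: 52.29% of its uniquely placed reads lay outside genes, against 24.87 to 31.92% in the other 5 sorted libraries. It also lay at -63.5 on the second principal component, which held 14.38% of the variance, with the other 5 between -7.21 and 37.97.

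**Figure D1:**
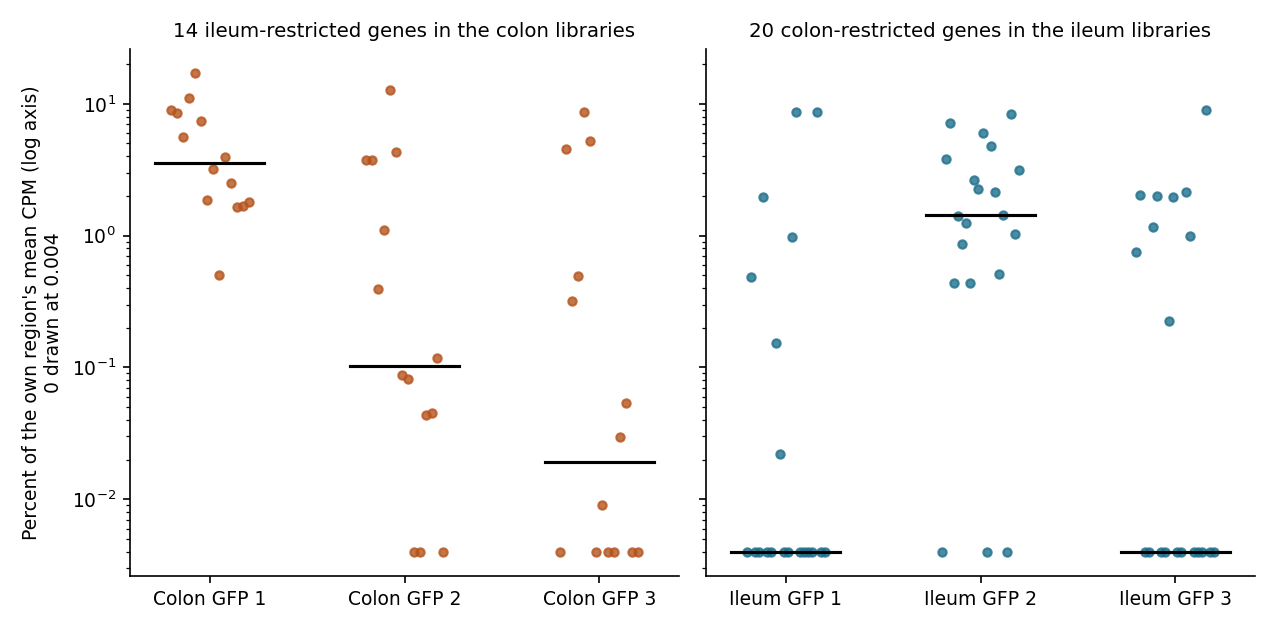
Region-restricted transcripts in the sorted libraries. Each point is 1 gene, given as percent of its mean CPM in the sorted cells of its own region on a log axis with 0 drawn at 0.004, and bars are medians; the 14 ileum-restricted genes had their highest median, 3.56%, in colon GFP 1, and the 20 colon-restricted genes had theirs, 1.43%, in ileum GFP 2.

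Of 15274 genes tested, 1918 (12.6%) were higher in colon sorted cells and 1556 (10.2%) were higher in ileum sorted cells, with a median log2 fold change of 0.00 over all genes tested. Counts of called list members, given below, are to be read beside these shares. Differences of at least 4-fold were called for 661 genes higher in colon and 311 higher in ileum. Colon and ileum libraries did not overlap for 5275 genes (34.5%), 2800 (18.3%) with colon higher and 2475 (16.2%) with ileum higher. Leaving out colon GFP 1 kept 3105 of the 3474 calls (89.4%) with none in the opposite direction and raised the number called to 3961. Leaving out colon GFP 1 and ileum GFP 2 together kept 2775 of them (79.9%), and colon GFP 1 with ileum GFP 1 kept 2891 (83.2%). Colon GFP 2 and colon GFP 3 carried more of the calls: without them 2350 and 2282 were kept. The 6 sorted libraries fitted alone kept 2066 (59.5%). A block by the string that tables of both regions share in their names kept 2401 (69.1%). The string was common to colon GFP 1 and ileum GFP 2, the male-like libraries, and to colon GFP 2 and ileum GFP 3. Colon GFP 3 and ileum GFP 1 shared theirs with no sorted library of the other region, so the block pairs them with none. Within a string, sorted cells of the regions can be compared only in the pairs above. The first of these joins the libraries that held transcripts of the other region. Where this table-name block or the fit alone ended a call, it is given with the gene.

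**Figure D2:**
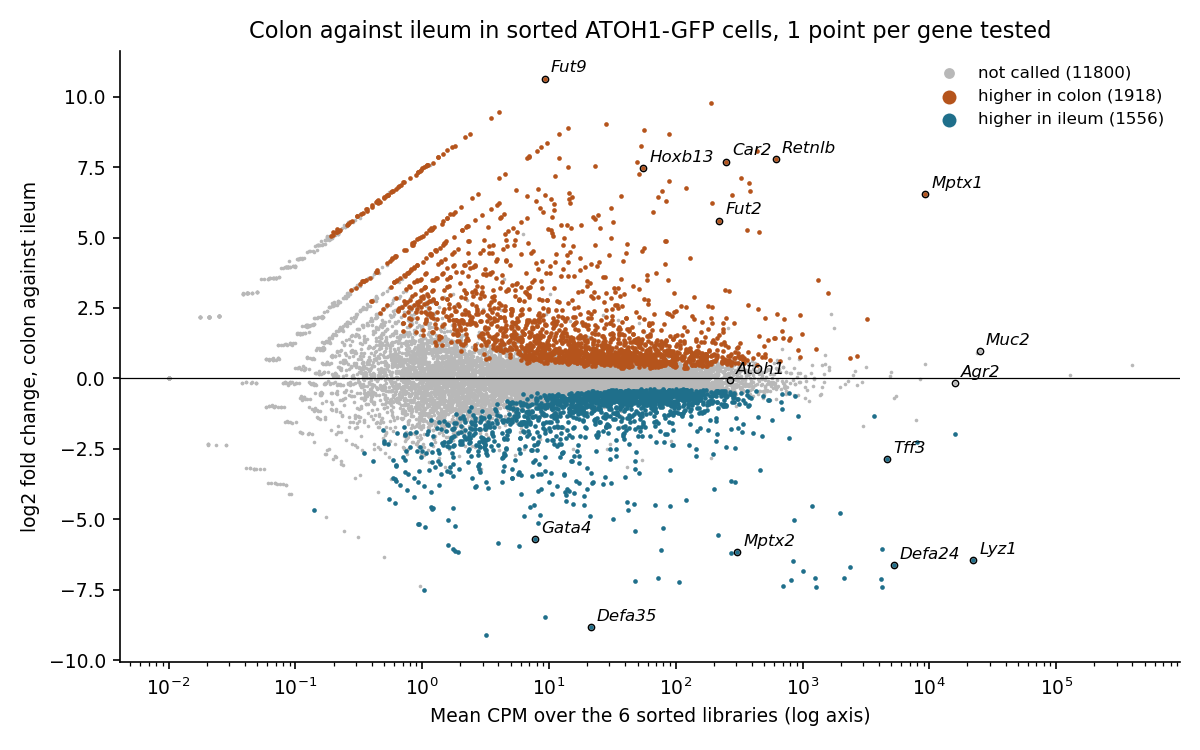
Colon against ileum sorted cells, 1 point per gene tested. The x axis is the mean CPM over the 6 sorted libraries (log axis) and the y axis the fitted log2 fold change, which for the diagonal streaks of genes without counts in 1 region depends on the fit's prior count; 1918 genes were called higher in colon, 1556 higher in ileum and 11800 were not called, with Mptx1 and Lyz1 far apart at high level and Atoh1 near 0.

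The genes with the largest rise in colon sorted cells included enzymes and transporters of the colonic surface. Fut9, a fucosyltransferase that makes Lewis x structures, was measured at 11.1, 20.7 and 23.9 CPM in colon and had no count in ileum (at least 125-fold higher, taking 3 counts in the ileum group as the limit, edgeR adjusted p = 2.98e-05). Car1, a cytosolic carbonic anhydrase of colonic epithelium, stood at 187, 309 and 638 CPM in colon against 0.341, 0.735 and 0.143 CPM in ileum (log2 fold change 9.76 ± 0.98, edgeR adjusted p = 4.74e-05). Slc6a14, an amino acid transporter, was measured at 22.3, 60.5 and 86.4 CPM in colon and left 2 counts in ileum, both in ileum GFP 1, so that it was 556-fold (95% counting interval 153 to 4592) higher by counts and was not called without that library (edgeR adjusted p = 0.0609). Lpo, which encodes lactoperoxidase, stood at 21.3, 23.5 and 39.5 CPM in colon against 0, 0.122 and 0 CPM in ileum and was 570-fold (95% counting interval 102 to 22529) higher by counts. The genes with the largest rise or fall were taken only from those whose colon and ileum libraries did not overlap. Their separation was thus fixed by that choice. Plet1, a surface protein held by a lipid anchor, came to 901, 844 and 849 CPM in colon against 0.170, 6.61 and 2.28 CPM in ileum (log2 fold change 8.07 ± 1.66, edgeR adjusted p = 0.00917). Nxpe2 stood at 106, 102 and 128 CPM in colon against 0.170, 0.490 and 0 CPM in ileum (log2 fold change 8.82 ± 0.48, edgeR adjusted p = 1.46e-07). Thbs4, a thrombospondin of the extracellular matrix, was at 116, 174 and 239 CPM in colon against 0, 0.735 and 0.428 CPM in ileum. Hao2, a peroxisomal hydroxyacid oxidase, stood at 44.96, 98.9 and 174 CPM in colon against 0.681, 0.245 and 0.143 CPM in ileum. Scnn1b, a subunit of the epithelial sodium channel, was measured at 9.35, 14.7 and 24.1 CPM in colon against 0.170, 0 and 0 CPM in ileum and was 320-fold (95% counting interval 57.1 to 12677) higher by counts. Tnip3, an inhibitor of NF-kappa-B signalling, and Ttll6, a tubulin polyglutamylase, were at 23.8, 30.1 and 18.1 CPM and at 14.9, 22.9 and 14.3 CPM in colon and left 1 ileal count each. Much of the ileal signal of these genes lay in ileum GFP 2: without it the log2 fold changes of Plet1, Nxpe2, Thbs4 and Car1 were 9.37, 10.29, 9.5 and 10.59, and Lpo and Tnip3 had no ileal count. With the table-name block Car1, Plet1 and Slc6a14 were not called (edgeR adjusted p = 0.0572, 0.147 and 0.333). Without ileum GFP 1 that of Hao2 was 8.98 and Scnn1b and Ttll6 had no ileal count, and without colon GFP 3 that of Car1 was 9.16. With AY761184, a defensin gene with a clone name, set aside, the 12 with the largest fall were Paneth cell genes: Lyz1 and 11 members of the alpha-defensin family, of which Defa35 and Defa-ps7 left 2 and 1 counts in colon, all in colon GFP 1, and were 496-fold (95% counting interval 137 to 4106) and 440-fold (95% counting interval 78.6 to 17435) lower by counts.

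**Figure D3:**
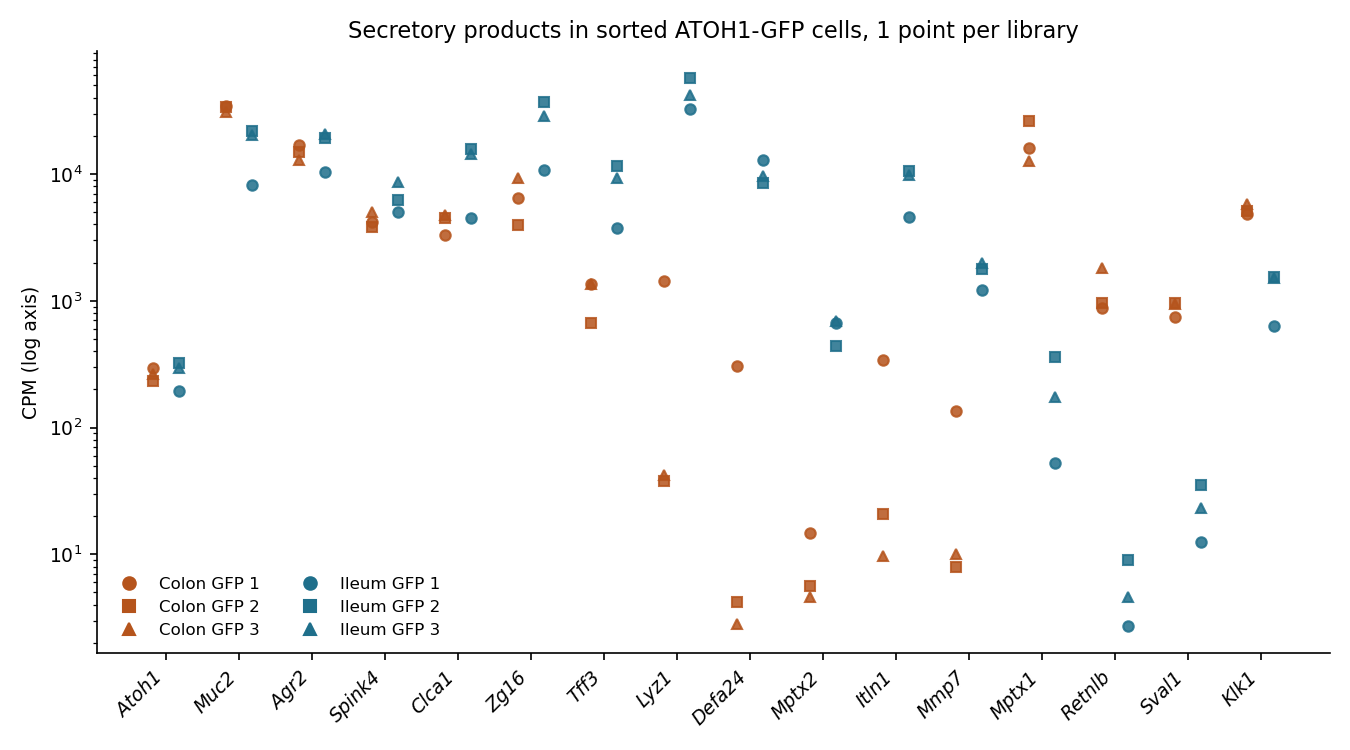
CPM (log axis) of secretory products in each sorted library, with colon in orange and ileum in blue. Lyz1, Defa24, Itln1 and Mmp7 in colon GFP 1 lay between the other colon libraries and the ileum, while Mptx1 and Mptx2 changed places between regions and Atoh1 overlapped.

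Most Paneth cell products were lower in colon. Of 24 tested, 20 were lower and 3 were higher in colon sorted cells, with a median log2 fold change of -5.80 (12.6% of all genes tested were higher and 10.2% lower, with a median of 0.00). Lyz1 (ENSMUSG00000069515), the Paneth cell lysozyme, stood at 1432, 37.7 and 41.99 CPM in colon GFP 1, 2 and 3 against 32787, 57047 and 42154 CPM in ileum GFP 1, 2 and 3 (log2 fold change -6.45 ± 1.47, edgeR adjusted p = 0.0133). Colon GFP 1 held far more Lyz1 than the other colon libraries yet lay below every ileum library, and without it the log2 fold change was -10.11. Defa24, an alpha-defensin, came to 308, 4.23 and 2.84 CPM in colon against 12900, 8479 and 9624 CPM in ileum (log2 fold change -6.62 ± 1.97, edgeR adjusted p = 0.0411), again with colon GFP 1 the highest colon library and no overlap. Its call was not made when any of the other 5 sorted libraries was left out (edgeR adjusted p = 0.0626 to 0.0717), whereas without colon GFP 1 it was made at a log2 fold change of -11.50. Without colon GFP 1, 19 of the 24 Paneth products were lower, with a median of -7.81. The 6 sorted libraries fitted alone gave 12 lower, and the table-name block gave 8. Lyz1 and Defa24 were not called in the fit alone (edgeR adjusted p = 0.0763 and 0.145) nor with the block (0.0915 and 0.234).

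Most other Paneth products followed the same order of regions. Mmp7, the metalloproteinase that activates pro-defensins in the mouse, stood at 135, 7.97 and 10.01 CPM in colon against 1225, 1777 and 1985 CPM in ileum (log2 fold change -5.01 ± 1.10, edgeR adjusted p = 0.012). Itln1, a lectin that binds microbial glycans, was at 342, 20.7 and 9.71 CPM in colon against 4588, 10502 and 9829 CPM in ileum (log2 fold change -6.06 ± 1.43, edgeR adjusted p = 0.016). Without colon GFP 1 these 2 differences grew to -7.53 and -9.09 on the log2 scale. Neither Mmp7 nor Itln1 was called in the fit alone (edgeR adjusted p = 0.0815 and 0.0762) or with the table-name block (0.112 and 0.0737). Ang4, a microbicidal angiogenin shared with goblet cells, stood at 87.1, 123 and 86.2 CPM in colon against 2547, 2150 and 2109 CPM in ileum (log2 fold change -4.52 ± 1.12, edgeR adjusted p = 0.0196). No colon library came near an ileal one, yet the call was lost without colon GFP 3 (edgeR adjusted p = 0.0611). Slc30a2, a vesicular zinc transporter, fell to 2.98, 1.74 and 0 CPM in colon from 21.8, 33.3 and 26.4 CPM in ileum (log2 fold change -4.01 ± 0.48, edgeR adjusted p = 0.000102), or by 4.85 on the log2 scale without colon GFP 1. Guca2b, which encodes uroguanylin and is also among the enterocyte markers below, was lower in colon by 1.89 on the log2 scale (edgeR adjusted p = 1.13e-05). The 3 list members higher in colon were Mptx1, Copz2 and Nupr1. Copz2, a coatomer subunit, was measured at 55.9, 61.9 and 71.3 CPM in colon against 21.97, 36.2 and 33.4 CPM in ileum, and Nupr1, a stress-response factor, at 400, 362 and 338 CPM in colon against 59.8, 134 and 127 CPM in ileum. Defensin genes share sequence: of 50-base windows, 92.0% of Defa17 matched Defa3, 72.9% of Defa21 matched Defa22 and 28.1% of Defa24 were shared. Reads placed at several sites were not counted for any gene, so levels of single defensins are uncertain. Of Lyz1 windows 16.1% were shared with Lyz2, and of Mptx1 windows 17.9% with Mptx2.

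The 2 mucosal pentraxin genes took opposite sides. Mptx1 (ENSMUSG00000026531), a secreted pentraxin of the family of C-reactive protein, stood at 15970, 26041 and 12709 CPM in colon against 52.8, 358 and 175 CPM in ileum (log2 fold change 6.54 ± 1.07, edgeR adjusted p = 0.00192). Mptx2 (ENSMUSG00000079180), its paralog, came to 14.7, 5.60 and 4.63 CPM in colon against 662, 443 and 692 CPM in ileum (log2 fold change -6.15 ± 0.77, edgeR adjusted p = 0.000338). Every colon library was above every ileum library for Mptx1 and below every ileum library for Mptx2. The differences were 7.32 for Mptx1 without ileum GFP 2 and -6.86 for Mptx2 without colon GFP 1. With the table-name block Mptx2 and Lyz2 were not called (edgeR adjusted p = 0.0504 and 0.103). Levels per kilobase of transcript were ranked over genes with a symbol, with those of mitochondrial DNA left out. Mptx1 was the highest of these genes in colon sorted cells, at 22829 CPM per kb. The predicted gene Gm23935 followed at 17450, then Agr2 at 11563, and Muc2 was at 4632. In ileum sorted cells Lyz1 led at 34835 CPM per kb and Mptx1 was at 244. Lyz2, the lysozyme of phagocytes next to Lyz1 in the genome, was low throughout, at 1.28, 0.373 and 0.149 CPM in colon against 9.37, 22.9 and 11.99 CPM in ileum (log2 fold change -4.49 ± 0.77, edgeR adjusted p = 0.00195, and -5.72 on the log2 scale without colon GFP 1). Since these paralogs are alike in sequence and differ in level by region, the 250 bases before each start site are shown, from RefSeq promoters of GRCm38.p6. That build is not the one named for the counts. The windows are Mptx1 at chr1:174330268-174330517 (plus strand), Mptx2 at chr1:173277757-173278006 (minus strand), Lyz1 at chr10:117292869-117293118 (minus strand) and Lyz2 at chr10:117282273-117282522 (minus strand). Capitals mark the longest run shared by the 2 members of a pair.
Mptx1: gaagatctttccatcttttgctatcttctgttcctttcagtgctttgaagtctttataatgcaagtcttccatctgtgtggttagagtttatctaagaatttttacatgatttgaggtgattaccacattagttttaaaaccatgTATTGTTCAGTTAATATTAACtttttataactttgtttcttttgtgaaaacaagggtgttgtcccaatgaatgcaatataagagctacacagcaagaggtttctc
Mptx2: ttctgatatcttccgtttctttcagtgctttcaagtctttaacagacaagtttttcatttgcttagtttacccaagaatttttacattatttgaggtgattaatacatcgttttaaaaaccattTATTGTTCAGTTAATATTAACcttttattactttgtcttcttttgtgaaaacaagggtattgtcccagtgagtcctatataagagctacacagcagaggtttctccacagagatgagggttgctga
Lyz1: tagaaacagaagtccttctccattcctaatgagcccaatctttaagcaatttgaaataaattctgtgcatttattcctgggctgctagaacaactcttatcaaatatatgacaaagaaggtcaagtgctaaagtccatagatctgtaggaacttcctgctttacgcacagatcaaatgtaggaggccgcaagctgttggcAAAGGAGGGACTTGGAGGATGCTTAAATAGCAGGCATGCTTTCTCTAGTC
Lyz2: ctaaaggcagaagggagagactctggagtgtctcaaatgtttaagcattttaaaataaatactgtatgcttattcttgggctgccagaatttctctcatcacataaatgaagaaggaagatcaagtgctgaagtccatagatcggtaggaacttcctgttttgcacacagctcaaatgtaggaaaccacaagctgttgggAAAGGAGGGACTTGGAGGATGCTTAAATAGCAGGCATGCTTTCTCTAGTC
In an alignment of each pair, 197 of 250 bases (78.8%) were identical for Mptx1 and Mptx2, with a longest shared run of 21 bases, and 200 of 250 (80%) for Lyz1 and Lyz2, with a run of 50 bases that ends at the start site. The motif AGATAA, read on both strands, was present in the Mptx1 window and not in that of Mptx2, and the motif TTTATNG in that of Mptx2 and not of Mptx1. These motifs occur in 9.99 and 9.81% of 32851 promoter windows of this length, and a match is a description of letters and not a binding site.

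Goblet cell products split between the regions instead of following one. Of 22 tested, 6 were higher in colon and 9 were lower, with a median log2 fold change of -0.67. The 9 include Itln1 and Ang4, which are in both lists and were counted among the Paneth products above. Muc2, the gel-forming mucin, stood at 34344, 33870 and 30821 CPM in colon against 8232, 22029 and 20312 CPM in ileum; the groups did not overlap, but the difference was not called (log2 fold change 0.97 ± 0.50, edgeR adjusted p = 0.179). Agr2, a disulfide isomerase needed for MUC2 folding, and Spink4, a protease inhibitor of goblet cells, overlapped between regions. Agr2 was at 16943, 14959 and 12880 CPM in colon against 10356, 19365 and 20669 CPM in ileum. Spink4 stood at 4150, 3826 and 5031 CPM in colon against 4999, 6285 and 8617 CPM in ileum. The chloride channel regulator Clca1, a mucus metalloproteinase, was measured at 3275, 4458 and 4781 CPM in colon against 4477, 15763 and 14431 CPM in ileum and was not called (edgeR adjusted p = 0.0905). It was called with the 6 sorted libraries alone, with the table-name block, with no filter on low counts and without ileum GFP 1 (edgeR adjusted p = 0.0479).

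Tff3, Zg16 and Fcgbp were lower in colon. Tff3, the goblet cell trefoil peptide, stood at 1367, 665 and 1355 CPM in colon against 3773, 11502 and 9250 CPM in ileum (log2 fold change -2.86 ± 0.41, edgeR adjusted p = 0.000284). Each colon library was below each ileum library for Tff3, and the call held in every alternative run. Zg16, a lectin-like mucus protein that binds Gram-positive bacteria, came to 6439, 3956 and 9265 CPM in colon against 10756, 36880 and 28864 CPM in ileum (log2 fold change -1.96 ± 0.56, edgeR adjusted p = 0.0252). Fcgbp, a mucin-associated protein of the mucus layer, stood at 3120, 2484 and 2583 CPM in colon against 3920, 21156 and 14287 CPM in ileum (log2 fold change -2.27 ± 0.58, edgeR adjusted p = 0.0155). Ileum GFP 1 was the lowest ileum library for all 3. The Zg16 call was not made without colon GFP 1, colon GFP 2, ileum GFP 2 or ileum GFP 3 (edgeR adjusted p = 0.0559 to 0.0890), nor that of Fcgbp without colon GFP 2, colon GFP 3 or ileum GFP 2 (0.0554 to 0.0594). Guca2a, which encodes guanylin, and the chemokine gene Ccl9 were lower in colon as well, by 1.32 and 2.06 on the log2 scale. Without colon GFP 2, or without ileum GFP 2, 5 goblet products were lower. With the table-name block Fcgbp and Ccl9 were not called (edgeR adjusted p = 0.0793 and 0.0555).

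Retnlb, Sval1, Klk1, Tgm3 and Tff2 were higher in colon. Retnlb, which encodes the antibacterial protein RELM-beta, was at 873, 964 and 1823 CPM in colon against 2.72, 9.06 and 4.57 CPM in ileum (log2 fold change 7.77 ± 1.43, edgeR adjusted p = 0.00516). Its ileal level was highest in ileum GFP 2, and the log2 fold change without that library was 8.37, but it was not called with the table-name block (edgeR adjusted p = 0.0734). Sval1, a seminal vesicle antigen-like secreted protein, stood at 748, 959 and 939 CPM in colon against 12.6, 35.1 and 23.3 CPM in ileum (log2 fold change 5.21 ± 0.35, edgeR adjusted p = 5.99e-07). Klk1, a tissue kallikrein, was measured at 4872, 5094 and 5804 CPM in colon, above every ileum library, of which ileum GFP 1 was the lowest at 628 CPM (log2 fold change 2.10 ± 0.42, edgeR adjusted p = 0.0031). Tgm3, a transglutaminase, ranged widely in colon, at 15.9, 80.7 and 200 CPM, and its ileal counts all came from ileum GFP 2, at 1.22 CPM (log2 fold change 7.68 ± 1.24, edgeR adjusted p = 0.0025, and 6.65 without colon GFP 3). Tff2 was low but higher in colon, at 4.78, 3.98 and 5.38 CPM in colon against 0.341, 0.122 and 0.428 CPM in ileum (log2 fold change 3.97 ± 0.64, edgeR adjusted p = 0.00167). Reg4, a marker of deep crypt secretory cells, stood at 3463, 2813 and 2159 CPM in colon against 499, 549 and 664 CPM in ileum without overlap. It was not called (log2 fold change 2.30 ± 1.18, edgeR adjusted p = 0.193), but was with the 6 sorted libraries fitted alone (edgeR adjusted p = 0.00023). Of 11 deep crypt secretory and niche genes, 2 were higher and 2 lower, and 1 was higher without colon GFP 1, colon GFP 2 or ileum GFP 1.

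Membrane-bound mucins, which build the glycocalyx, were higher in colon for 4 of 5 tested and lower for none, with a median log2 fold change of 2.61. Muc4 came to 694, 688 and 547 CPM in colon against 136, 88.4 and 90.5 CPM in ileum (log2 fold change 2.61 ± 0.25, edgeR adjusted p = 6.9e-06). Muc3 stood at 156, 329 and 441 CPM in colon against 87.01, 71.2 and 50.8 CPM in ileum (log2 fold change 2.15 ± 0.37, edgeR adjusted p = 0.0011). Muc1 was at 15.6, 28.4 and 41.7 CPM in colon against 0, 0.612 and 0.285 CPM in ileum (log2 fold change 6.38 ± 0.59, edgeR adjusted p = 9.11e-06). Ileal Muc1 rested mostly on ileum GFP 2, and its log2 fold change was 7.42 without that library. Muc20 was lower in level and also higher in colon by 2.94 on the log2 scale, while Muc13, at 1846, 1744 and 1670 CPM in colon against 1335, 2577 and 2597 CPM in ileum, was not called (edgeR adjusted p = 0.557).

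Many enzymes that extend and cap the glycan chains of mucins were higher in colon. Mucin O-glycans start with GalNAc transferases, are extended from core structures and end in fucose, sialic acid or sulfate. Of 11 genes that start the chains, 1 was higher and 1 was lower in colon, with a median log2 fold change of -0.17. Of 39 genes for extension, capping and sulfation, 22 were higher and 2 were lower, with a median of 1.43. Without ileum GFP 1, 18 of the 39 were higher and 3 lower, and without colon GFP 1, 21 and 2. Without colon GFP 2, ileum GFP 2 or ileum GFP 3, 1 of them was lower. Of the 11 that start the chains, none was higher without colon GFP 2 or ileum GFP 1, and 2 were lower without ileum GFP 1. The fit alone gave none of the 11 higher and 1 of the 39 lower, and the table-name block none of the 11 higher and 4 lower.

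Fut2, the fucosyltransferase that makes H antigen, stood at 476, 416 and 406 CPM in colon against 6.98, 9.18 and 10.4 CPM in ileum (log2 fold change 5.60 ± 0.21, edgeR adjusted p = 2.31e-09). The colon libraries lay close together, as did the ileum libraries. B3gnt6, the core 3 synthase of colonic mucin, was measured at 139, 134 and 118 CPM in colon against 1.02, 2.69 and 2.57 CPM in ileum (log2 fold change 5.91 ± 0.37, edgeR adjusted p = 3.13e-07). Gcnt1, a core 2 branching enzyme, was low in ileum, at 21.8, 26.3 and 14.2 CPM in colon against 0.511, 0.245 and 0.428 CPM in ileum (log2 fold change 5.73 ± 0.53, edgeR adjusted p = 6.9e-06). The other branching enzyme tested, Gcnt3, stood at 749, 632 and 534 CPM in colon against 606, 850 and 910 CPM in ileum and was not called (edgeR adjusted p = 0.31). Among enzymes of core 1, C1galt1 and its chaperone C1galt1c1 were not called (edgeR adjusted p = 0.346 and 0.235). B3galt5, a galactosyltransferase for type 1 chains, came to 578, 616 and 446 CPM in colon against 2.90, 12.2 and 2.43 CPM in ileum (log2 fold change 6.50 ± 1.01, edgeR adjusted p = 0.00182), and its log2 fold change without ileum GFP 2 was 7.68, though it was not called with the table-name block (edgeR adjusted p = 0.0803). B3gnt7, which extends sulfated chains, stood at 381, 444 and 594 CPM in colon against 32.7, 75.9 and 56.96 CPM in ileum (log2 fold change 3.10 ± 0.35, edgeR adjusted p = 4.41e-05).

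Sialic acid genes went both ways. Cmah, which hydroxylates CMP-sialic acid to the glycolyl form, was at 238, 147 and 143 CPM in colon against 0, 2.81 and 0.857 CPM in ileum (log2 fold change 7.02 ± 0.82, edgeR adjusted p = 0.00027), and 8.54 on the log2 scale without ileum GFP 2. St6galnac6 stood at 546, 698 and 717 CPM in colon against 4.09, 7.47 and 2.28 CPM in ileum (log2 fold change 7.12 ± 1.35, edgeR adjusted p = 0.00604), and was not called with the table-name block (edgeR adjusted p = 0.123). St6gal1, an alpha-2,6-sialyltransferase, was measured at 321, 396 and 269 CPM in colon against 44.4, 54.4 and 72.2 CPM in ileum (log2 fold change 2.53 ± 0.33, edgeR adjusted p = 0.000175). In contrast, St3gal1, which caps core 1 with alpha-2,3-linked sialic acid, stood at 44.96, 21.04 and 17.8 CPM in colon against 79.3, 163 and 162 CPM in ileum (log2 fold change -2.26 ± 0.44, edgeR adjusted p = 0.00382). St3gal4 was also lower in colon, by 0.61 on the log2 scale (edgeR adjusted p = 0.0283), a call not made without colon GFP 2, colon GFP 3, ileum GFP 2 or ileum GFP 3 (0.0747 to 0.0932) or in the fit alone (0.0536). Slc35a1, the Golgi transporter of CMP-sialic acid, was higher in colon at 858, 733 and 425 CPM in colon against 195, 232 and 280 CPM in ileum (log2 fold change 1.51 ± 0.24, edgeR adjusted p = 0.000541). Papss2, which makes the sulfate donor PAPS, came to 414, 384 and 330 CPM in colon against 78.2, 108 and 105 CPM in ileum (log2 fold change 1.95 ± 0.26, edgeR adjusted p = 0.000126). Abo, the blood group glycosyltransferase, left 3 counts in ileum and was 197-fold (95% counting interval 67 to 955) higher in colon by counts, with 1 ileal count left without ileum GFP 1.

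**Figure D4:**
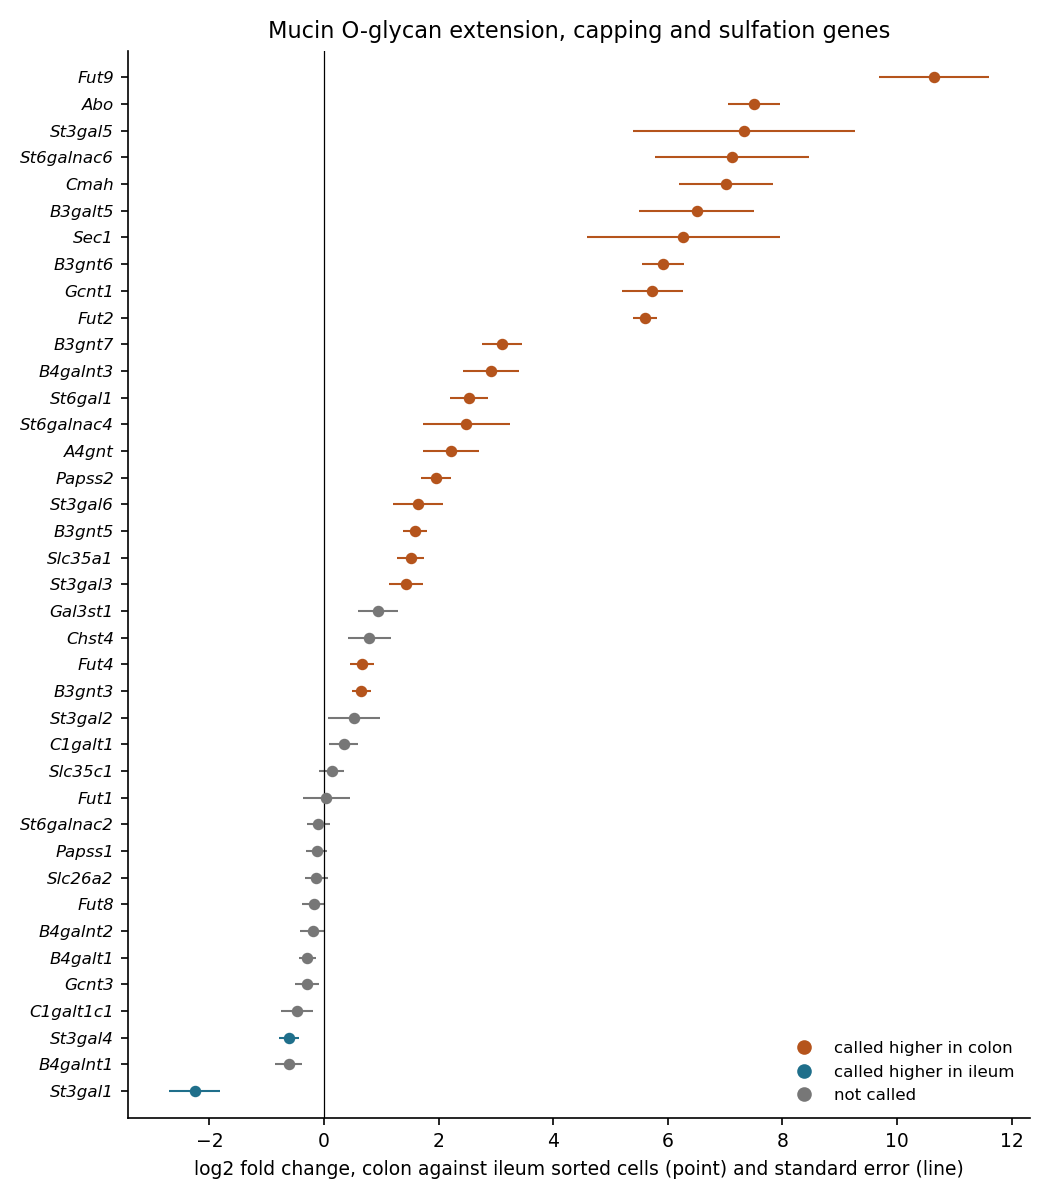
Fitted log2 fold change of colon against ileum sorted cells for 39 genes of mucin O-glycan extension, capping and sulfation, with the standard error as a line. The 22 genes called higher in colon are orange, the 2 called higher in ileum blue and the 15 not called grey; St3gal1 is the lowest and Fut9, without counts in ileum, the highest, at a fitted value that is no bound.

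Most Hox genes were higher in colon sorted cells. HOX proteins specify position along the body axis, with the posterior paralogs expressed in the hindgut. Of 26 Hox genes tested, 19 were higher in colon and none was lower, with a median log2 fold change of 4.12, or 3.13 with the 4 genes without ileal counts set at their bound. Hoxb13 stood at 68.7, 122 and 140 CPM in colon against 0, 1.59 and 0 CPM in ileum (log2 fold change 7.47 ± 0.58, edgeR adjusted p = 5.4e-06), and all of its ileal counts came from ileum GFP 2. Hoxa13 was at 15.1, 26.6 and 23.3 CPM in colon against 0, 0.490 and 0.428 CPM in ileum. Hoxd13 stood at 15.4, 20.4 and 25.7 CPM in colon against 0, 1.47 and 0 CPM in ileum. Hoxa7, a more anterior member, was measured at 26.4, 27.5 and 19.9 CPM in colon against 0, 1.47 and 0 CPM in ileum. Ileal Hoxd13 and Hoxa7 were likewise found in ileum GFP 2 alone, so that no ileal count of these 3 genes remained without it. Hoxa10 and Hoxa9 left 1 ileal count each and were 406-fold (95% counting interval 72.6 to 16087) and 189-fold (95% counting interval 33.6 to 7509) higher by counts. Hoxa11 and Hoxd11 had no ileal count, so were at least 34-fold and at least 15.4-fold higher. Some genes of the Hoxb cluster were expressed in both regions: Hoxb9 stood at 57.9, 55.2 and 54.2 CPM in colon against 34.4, 10.5 and 12.4 CPM in ileum and was called. Hoxb7 came to 27.7, 20.5 and 21.4 CPM in colon against 14.3, 7.83 and 9.14 CPM in ileum and was called too. Hoxb5, which was not, stood at 9.46, 5.73 and 6.28 CPM in colon against 20.8, 1.59 and 3.28 CPM in ileum. Ileum GFP 1 was the highest ileum library for all 3, and the log2 fold change of Hoxb9, 1.57, was 2.28 without it. Without colon GFP 1 and ileum GFP 2 together, 14 Hox genes were higher and Hoxb7 was not called (edgeR adjusted p = 0.0715).

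Among 22 other regional transcription factors, 3 were higher and 9 were lower in colon, with a median log2 fold change of -0.60, and without colon GFP 2, or in the fit alone, only 1 was higher. Gata4, which specifies jejunal identity, stood at 0.213, 0.498 and 0.149 CPM in colon against 5.62, 26.3 and 14.1 CPM in ileum (log2 fold change -5.69 ± 0.82, edgeR adjusted p = 0.000456). Gata5 was measured at 7.12, 2.49 and 1.34 CPM in colon against 87.2, 73.1 and 77.1 CPM in ileum (log2 fold change -4.37 ± 0.36, edgeR adjusted p = 3.91e-06). Colon GFP 1 was the highest colon library for Gata5, at -5.33 on the log2 scale without it, and Gata4 was at -6.30 without colon GFP 2 and -5.05 without ileum GFP 2. Gata6, expressed along the whole intestine, differed less, at 52.3, 42.96 and 45.7 CPM in colon against 77.6, 93.2 and 70.2 CPM in ileum (log2 fold change -0.77 ± 0.15, edgeR adjusted p = 0.00221). Hnf4g, a nuclear receptor of enterocyte genes, stood at 19.9, 18.9 and 21.8 CPM in colon against 57.5, 44.8 and 43.97 CPM in ileum (log2 fold change -1.27 ± 0.14, edgeR adjusted p = 2.63e-05), and Hnf4a was lower by 0.77 on the log2 scale. Tbx3 and Isx, a repressor of vitamin A uptake genes, were lower in colon by 2.31 and 1.15. Cdx2, the caudal factor of the whole intestine, came to 21.4, 18.8 and 33.3 CPM in colon against 25.4, 20.6 and 15.4 CPM in ileum and was not called (edgeR adjusted p = 0.421).

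Most transcription factors of the secretory lineage did not pass the test between regions, as held for most genes tested. Of 19 tested, 1 was higher and 3 were lower in colon, with a median log2 fold change of -0.05. Over all genes tested, 12.6% were higher and 10.2% lower. Spdef, which drives goblet and Paneth maturation, stood at 317, 284 and 405 CPM in colon against 116, 282 and 259 CPM in ileum. Gfi1, a transcriptional repressor of the secretory lineage, was at 61.97, 34.7 and 36.01 CPM in colon against 47, 102 and 77.5 CPM in ileum. Xbp1, a factor of the unfolded protein response, stood at 560, 611 and 658 CPM in colon against 445, 698 and 782 CPM in ileum. None of these 3 was called. Bhlha15, also named MIST1, a factor that scales up the secretory apparatus, was measured at 34.9, 27.6 and 28.8 CPM in colon against 110, 184 and 179 CPM in ileum (log2 fold change -2.37 ± 0.30, edgeR adjusted p = 0.000131). The colon libraries lay close together and below every ileum library. Runx1t1, a corepressor of the ETO family, stood at 1.59, 1.49 and 1.20 CPM in colon against 12.8, 25.5 and 17.7 CPM in ileum (log2 fold change -3.69 ± 0.46, edgeR adjusted p = 7.14e-05). Klf4, a zinc-finger factor of goblet differentiation, came to 148, 114 and 124 CPM in colon against 150, 292 and 279 CPM in ileum (log2 fold change -0.90 ± 0.22, edgeR adjusted p = 0.00873), with ileum GFP 1 near the colon libraries. Ehf, an epithelial ETS factor, was the 1 member higher in colon, at 1048, 892 and 696 CPM in colon against 332, 321 and 330 CPM in ileum (log2 fold change 1.42 ± 0.18, edgeR adjusted p = 0.0001). Leaving out colon GFP 1, or ileum GFP 1, gave 5 members lower, and the table-name block gave 4 higher and 6 lower.

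Most hormone genes were at low levels in both arms, and Insl5, Pyy, Gcg and Sst were higher in colon. Of 17 hormone and serotonin genes, 5 were higher and 1 was lower in colon, with a median log2 fold change of 0.17. The list summed to 137 to 163.5 CPM in colon and 153.2 to 229.4 CPM in ileum. Sct, its highest member per kilobase, was at 85.19 CPM per kb in colon and 154.8 in ileum and was not called. Insl5, a relaxin-family hormone of colonic L cells, stood at 1.06, 2.74 and 7.02 CPM in colon and had no ileal count, at least 23-fold higher (edgeR adjusted p = 0.00367). Pyy, which encodes peptide YY, was at 1.91, 7.10 and 12.7 CPM in colon against 0.511, 0.245 and 0.428 CPM in ileum (log2 fold change 4.17 ± 0.72, edgeR adjusted p = 0.00149). The precursor gene of GLP-1, Gcg, stood at 10.9, 20.7 and 23.2 CPM in colon against 9.71, 2.08 and 5.14 CPM in ileum (log2 fold change 1.73 ± 0.40, edgeR adjusted p = 0.00917), with no overlap. Colon GFP 1 was the lowest colon library for all 3, and leaving out colon GFP 3 gave a log2 fold change of 3.50 for Pyy, while leaving out ileum GFP 1 gave 2.35 for Gcg. Sst, which encodes somatostatin, was measured at 0.531, 2.49 and 3.44 CPM in colon against 0.170, 0.490 and 0 CPM in ileum (log2 fold change 3.10 ± 0.82, edgeR adjusted p = 0.0147), a call lost without colon GFP 3 (edgeR adjusted p = 0.0627). Without colon GFP 3, or with the table-name block, 3 of the 17 were higher, and in the fit alone 2 were higher and 2 lower. The block also ended the call of Sst (edgeR adjusted p = 0.145). Slc18a1, the vesicular monoamine transporter of enterochromaffin cells, went the other way, at 12.2, 6.85 and 11.2 CPM in colon against 45.3, 66.96 and 60.96 CPM in ileum (log2 fold change -2.52 ± 0.27, edgeR adjusted p = 2.35e-05). The serotonin genes Ddc and Tph1 of the same list did not follow it. Ddc was at 4.855 CPM per kb in colon and 2.511 in ileum, and Tph1 at 0.1713 and 0.1422. Chgb, a granin of endocrine granules, did not differ by call, at 11.9, 21.7 and 20.02 CPM in colon against 8.68, 32.1 and 11.8 CPM in ileum (edgeR adjusted p = 1).

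Of 20 endocrine granule proteins, 4 were higher and 1 lower in colon, with a median log2 fold change of 0.64, or 0.49 with the 3 genes without counts in 1 region at their bound. Pam, which amidates peptide hormones, stood at 9.89, 26.1 and 37.2 CPM in colon against 4.94, 2.81 and 3.71 CPM in ileum (log2 fold change 2.68 ± 0.45, edgeR adjusted p = 0.00143). Pcsk1, a prohormone convertase, came to 36.8, 40.2 and 27.6 CPM in colon against 17.9, 18.9 and 16.6 CPM in ileum (log2 fold change 0.97 ± 0.21, edgeR adjusted p = 0.00532). Of 12 enteroendocrine receptors and channels, 4 were higher and 1 lower, with a median of 1.64, or 1.42 at the bound. Ffar2, a receptor for short-chain fatty acids, stood at 83.8, 80.8 and 63.95 CPM in colon against 17.9, 32.6 and 39.5 CPM in ileum (log2 fold change 1.34 ± 0.26, edgeR adjusted p = 0.00211). Ffar4, a receptor for long-chain fatty acids, was at 41.7, 32.6 and 53.2 CPM in colon against 7.66, 16.8 and 12.1 CPM in ileum (log2 fold change 1.79 ± 0.28, edgeR adjusted p = 0.00049). Both have been described outside enteroendocrine cells as well. The 1 lower granule gene was not called without colon GFP 3 or ileum GFP 1, nor the 1 lower receptor gene without colon GFP 2 or colon GFP 3. Htr4, a serotonin receptor, stood at 9.78, 15.2 and 14.9 CPM in colon against 6.47, 1.22 and 1.14 CPM in ileum (log2 fold change 2.24 ± 0.47, edgeR adjusted p = 0.00433), or 3.47 on the log2 scale without ileum GFP 1, its highest ileum library. Of 15 enteroendocrine transcription factors, 1 was higher and 1 lower. Neither call held without colon GFP 3, without ileum GFP 1 or with the table-name block. St18, a zinc-finger factor, was measured at 1.81, 1.74 and 2.24 CPM in colon against 0.170, 0.490 and 0.428 CPM in ileum. Neurod1, a driver of endocrine differentiation, stood at 0.106, 0 and 0.149 CPM in colon against 1.02, 0.367 and 0.428 CPM in ileum. Its call was also lost without colon GFP 1 or colon GFP 2 (edgeR adjusted p = 0.0629 and 0.114) and with DESeq2.

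Stem cell genes were divided, with 3 of 20 higher and 8 lower in colon and a median log2 fold change of -0.33. The fit of the sorted libraries alone gave 4 lower, the table-name block 6 higher, and the fit without colon GFP 1 and ileum GFP 2 together 1 higher. Olfm4, a marker of small-intestinal stem cells, came to 18.6, 0.623 and 1.64 CPM in colon against 1068, 272 and 265 CPM in ileum (log2 fold change -6.21 ± 1.26, edgeR adjusted p = 0.0082). Ileum GFP 1 held the most Olfm4 by far, and the log2 fold change was -5.21 without it and -8.91 without colon GFP 1. Lgr5, the Wnt-linked stem cell receptor, stood at 13.3, 15.9 and 18.98 CPM in colon against 121, 29.99 and 33.98 CPM in ileum (log2 fold change -1.94 ± 0.47, edgeR adjusted p = 0.0135), and -1.0 without ileum GFP 1. The ileal range of both was set by ileum GFP 1. In the fit alone Olfm4, Lgr5 and Rnf43 were not called (edgeR adjusted p = 0.0673, 0.0681 and 0.0687), nor was Olfm4 with the table-name block (0.0861). Smoc2, a matricellular protein of stem cells, was at 38.5, 36.6 and 51.1 CPM in colon against 76.6, 94.8 and 88.4 CPM in ileum (log2 fold change -1.04 ± 0.15, edgeR adjusted p = 0.000194). Hopx, an atypical homeodomain protein, stood at 44.96, 41.5 and 41.4 CPM in colon against 79.9, 80.1 and 86.95 CPM in ileum (log2 fold change -0.95 ± 0.16, edgeR adjusted p = 0.00071). Znrf3 and Rnf43, which remove Wnt receptors, were lower by 1.04 and 1.29 on the log2 scale, but Rnf43 was not called without colon GFP 2 or colon GFP 3 (edgeR adjusted p = 0.0517 and 0.0727) and its difference was -0.59 without ileum GFP 1. Cd44, a hyaluronan receptor, was measured at 210, 152 and 181 CPM in colon against 96.9, 32.3 and 25.7 CPM in ileum (log2 fold change 1.82 ± 0.45, edgeR adjusted p = 0.0148). Its log2 fold change was 2.64 without ileum GFP 1, and it was not called without colon GFP 1 and ileum GFP 2 together (edgeR adjusted p = 0.0792). Lrig1, a negative regulator of ErbB receptors, was also higher in colon, at 143, 165 and 157 CPM in colon against 108, 100 and 104 CPM in ileum (log2 fold change 0.57 ± 0.13, edgeR adjusted p = 0.00785).

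Some signals that Paneth cells and secretory precursors send to neighbours were higher in ileum. Wnt3, the main epithelial Wnt ligand of small-intestinal crypts, stood at 2.66, 1.12 and 0 CPM in colon against 26.1, 33.5 and 29.7 CPM in ileum (log2 fold change -4.45 ± 0.59, edgeR adjusted p = 0.000325, and -5.60 on the log2 scale without colon GFP 1). Dll1, a Notch ligand of secretory precursors, came to 57.6, 21.2 and 20.9 CPM in colon against 78.3, 192 and 124 CPM in ileum (log2 fold change -1.97 ± 0.40, edgeR adjusted p = 0.00492), with colon GFP 1 the highest colon library (-2.64 without it). Dll4, the second ligand, was not called, at 35.4, 21.4 and 33.3 CPM in colon against 29.8, 53.98 and 45.7 CPM in ileum (edgeR adjusted p = 0.144). Of 27 Notch pathway genes, 5 were lower and none was higher, with a median of -0.21. Over all genes tested, 10.2% were lower and 12.6% higher. Notch4 and Numb, an inhibitor of Notch, were lower by 0.89 and 0.51 on the log2 scale. Without colon GFP 2, 3 Notch genes were lower, and without colon GFP 1, ileum GFP 1 or ileum GFP 2, 1 or 2 were higher. The fit alone gave 2 lower, without Numb (edgeR adjusted p = 0.0886). Of 28 proliferation genes, 7 were lower and none was higher, with a median of -0.22, but without colon GFP 2 only 1 was lower, in the fit alone none was lower, and with ileum GFP 1 left out 2 were higher. Mki67 stood at 483, 395 and 290 CPM in colon against 574, 614 and 595 CPM in ileum (log2 fold change -0.61 ± 0.17, edgeR adjusted p = 0.0215). Its call was lost without colon GFP 2, colon GFP 3 or ileum GFP 2 (edgeR adjusted p = 0.0524 to 0.0612). Top2a was lower by 0.48, a call lost without colon GFP 2 (0.0928). Neither Mki67 nor Top2a was called in the fit alone (edgeR adjusted p = 0.117 and 0.122).

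Ion and fluid transport genes set the regions apart in both directions. Of 38 channel, pump and water pore genes, 15 were higher and 5 lower in colon, with a median log2 fold change of 0.56, and without ileum GFP 3 there were 9 higher and 3 lower, and 3 lower without colon GFP 2 or in the fit alone. Car2, a carbonic anhydrase that supplies bicarbonate, was at 402, 532 and 554 CPM in colon against 0.681, 3.92 and 2.28 CPM in ileum (log2 fold change 7.69 ± 0.41, edgeR adjusted p = 1.14e-07, and 8.33 on the log2 scale without ileum GFP 2). Best2, a bicarbonate channel of colonic goblet cells, stood at 72.2, 111 and 122 CPM in colon against 0, 1.71 and 0 CPM in ileum (log2 fold change 7.26 ± 0.67, edgeR adjusted p = 4.01e-05), and its ileal counts all came from ileum GFP 2. Ano1, a calcium-activated chloride channel, was measured at 115, 107 and 104 CPM in colon against 4.94, 3.43 and 4.85 CPM in ileum (log2 fold change 4.64 ± 0.42, edgeR adjusted p = 1.34e-05). Another member of its family, Ano7, was lower in colon, at 193, 163 and 147 CPM in colon against 362, 629 and 556 CPM in ileum (log2 fold change -1.62 ± 0.21, edgeR adjusted p = 8.66e-05). P2ry4, a nucleotide receptor that drives chloride secretion, stood at 49.8, 9.71 and 13.4 CPM in colon against 313, 457 and 350 CPM in ileum (log2 fold change -3.92 ± 0.59, edgeR adjusted p = 0.00113). Colon GFP 1 was the highest colon library, and the log2 fold change without it was -5.02. Slc5a8, a transporter of short-chain fatty acids, ranged from 32.1 to 134 CPM in colon against 4.09, 2.94 and 1.86 CPM in ileum (log2 fold change 4.76 ± 0.62, edgeR adjusted p = 0.000347, and 4.16 without colon GFP 3). Clca4b was lower in colon by 2.99 on the log2 scale, or by 3.69 without colon GFP 1, and 24.8% of its windows were shared with other genes, so its value is uncertain.

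Claudins seal or open the paths between cells. Of 10 tested, 3 were higher in colon and none was lower, with a median log2 fold change of 0.32, and with the table-name block 3 were lower. Cldn2, which forms a cation pore, came to 901, 921 and 646 CPM in colon against 239, 137 and 182 CPM in ileum (log2 fold change 2.14 ± 0.23, edgeR adjusted p = 1.69e-05). Cldn8, a sealing claudin of the distal colon, stood at 32.4, 41.2 and 54.99 CPM in colon against 10.7, 2.94 and 3.998 CPM in ileum (log2 fold change 2.90 ± 0.38, edgeR adjusted p = 0.000193), or 3.63 on the log2 scale without ileum GFP 1, its highest ileum library. Cldn14 was at 2.34, 2.99 and 1.49 CPM in colon against 0.170, 0 and 0 CPM in ileum, with 1 ileal count, in ileum GFP 1. Cldn7 and Cldn15 overlapped between regions and were not called. Cldn7 stood at 172, 188 and 225 CPM in colon against 172, 182 and 190 CPM in ileum. Cldn15 was measured at 369, 366 and 386 CPM in colon against 232, 544 and 439 CPM in ileum.

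Several receptors of bacterial products were higher in colon, and the flagellin sensors Naip5 and Naip6 were higher in ileum. Of 25 innate sensor genes, 10 were higher and 3 lower in colon, with a median log2 fold change of 0.21. Tlr4, the lipopolysaccharide receptor, stood at 19.9, 28.6 and 26.1 CPM in colon against 1.53, 0.490 and 0.857 CPM in ileum (log2 fold change 4.75 ± 0.40, edgeR adjusted p = 2.84e-06). Its coreceptor Cd14 came to 21.3, 29.1 and 46.8 CPM in colon against 6.64, 7.71 and 11.3 CPM in ileum (log2 fold change 1.91 ± 0.30, edgeR adjusted p = 0.000597). Tlr1, which pairs with TLR2 to bind lipoproteins, stood at 21.4, 31.4 and 37.2 CPM in colon against 8.17, 1.22 and 1.999 CPM in ileum (log2 fold change 3.06 ± 0.49, edgeR adjusted p = 0.0011). Ileum GFP 1 was its highest ileum library, and the log2 fold change was 4.22 without it. Il18, an epithelial cytokine, was at 6.38, 16.8 and 20.9 CPM in colon against 0.851, 2.08 and 3.14 CPM in ileum (log2 fold change 2.81 ± 0.45, edgeR adjusted p = 0.000821). Nod1, a peptidoglycan sensor, stood at 27.7, 27.4 and 30.2 CPM in colon against 14.6, 15.6 and 15.4 CPM in ileum (log2 fold change 0.90 ± 0.19, edgeR adjusted p = 0.00471), and was not called with the table-name block (edgeR adjusted p = 0.0531). No colon library overlapped an ileum library for these 5 genes, all called, and the same held for 34.5% of all genes tested. The 3 lower genes were Nlrc4 and 2 of its sensors. Naip6 was measured at 218, 158 and 129 CPM in colon against 654, 658 and 602 CPM in ileum (log2 fold change -1.92 ± 0.26, edgeR adjusted p = 0.000147). Naip5 stood at 67.3, 57.4 and 46.2 CPM in colon against 121, 145 and 132 CPM in ileum (log2 fold change -1.22 ± 0.21, edgeR adjusted p = 0.00105). Nlrc4, which assembles the inflammasome, came to 49.96, 55.8 and 29.7 CPM in colon against 104, 124 and 128 CPM in ileum (log2 fold change -1.39 ± 0.19, edgeR adjusted p = 0.000168). In contrast Naip1, a sensor of the secretion needle, was higher in colon by 1.02 (edgeR adjusted p = 0.00696). The Naip genes are near copies, with 21.5% of Naip6 windows shared.

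Of 34 antimicrobial and oxidase genes, several of them Paneth products named above, 5 were higher and 8 lower in colon, with a median of 0.26, or 0.00 with the 2 genes without counts in 1 region at their bound. Dmbt1, a scavenger receptor that aggregates bacteria, stood at 1777, 2387 and 4337 CPM in colon against 580, 229 and 236 CPM in ileum (log2 fold change 3.02 ± 0.51, edgeR adjusted p = 0.00106, and 3.61 without ileum GFP 1). Reg3g, a lectin that kills Gram-positive bacteria, was at 145, 34.6 and 80.8 CPM in colon against 821, 628 and 1052 CPM in ileum (log2 fold change -3.26 ± 0.57, edgeR adjusted p = 0.00175, and -3.85 without colon GFP 1). With the table-name block Reg3g was not called (edgeR adjusted p = 0.0958). Without colon GFP 3 only 3 of the 34 were higher, and in the fit alone 8.

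Genes of granule docking and release went both ways, and Rab27a, Sytl2, Sytl5 and Myrip were among those lower in colon. Of 26 tested, 4 were higher and 8 lower, with a median log2 fold change of -0.20. Rab27a, a GTPase of secretory granules, stood at 49, 41.7 and 34.1 CPM in colon against 75.4, 106 and 91.1 CPM in ileum (log2 fold change -1.12 ± 0.23, edgeR adjusted p = 0.00324). Sytl2, one of its effectors, was measured at 324, 234 and 196 CPM in colon against 432, 561 and 490 CPM in ileum (log2 fold change -0.98 ± 0.21, edgeR adjusted p = 0.00488). Sytl5, another effector, stood at 1.81, 0.124 and 1.05 CPM in colon against 7.49, 16.2 and 9.57 CPM in ileum (log2 fold change -3.44 ± 0.60, edgeR adjusted p = 0.00108, and -4.29 without colon GFP 1). Myrip, which links RAB27A to myosin, came to 20.8, 9.84 and 11.8 CPM in colon against 40.9, 51.7 and 40.3 CPM in ileum (log2 fold change -1.64 ± 0.37, edgeR adjusted p = 0.00758). No colon library reached an ileum library for any of these 4, all called, as held for 16.2% of all genes tested. Unc13b, a priming factor of vesicle fusion, was lower by 0.83 on the log2 scale. Anxa13, an annexin of the intestinal epithelium, stood at 97.6, 83.2 and 51.5 CPM in colon against 285, 518 and 448 CPM in ileum (log2 fold change -2.43 ± 0.25, edgeR adjusted p = 1.24e-05). Fer1l6, a ferlin, was at 125, 97.7 and 98.3 CPM in colon against 193, 396 and 330 CPM in ileum (log2 fold change -1.52 ± 0.37, edgeR adjusted p = 0.0127) and was not called without colon GFP 1 and ileum GFP 2 together (edgeR adjusted p = 0.05).

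Genes of protein folding and export from the endoplasmic reticulum gave counts that moved with the libraries fitted. Of 47, 5 were lower and none was higher in colon, with a median log2 fold change of -0.40, but without ileum GFP 1 there were 24 lower, without colon GFP 1 there were 8, and without each of the other 4 sorted libraries 1 to 3. The fit alone gave 1 lower and the table-name block 28. Dnajb9, a chaperone of the unfolded protein response, was lower in colon in every alternative, at 32.95, 35.98 and 28.1 CPM in colon against 42.4, 53.98 and 61.2 CPM in ileum (log2 fold change -0.70 ± 0.16, edgeR adjusted p = 0.00631). The list summed to 12149 to 15863 CPM in colon and to 11834, 21653 and 22096 CPM in ileum GFP 1, 2 and 3.

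Markers of other cells gave low levels. The 29 immune genes tested summed to 16.8 to 29.0 CPM in colon and 59.5 to 72.5 CPM in ileum sorted cells, and 3 of them were lower in colon, against 93.7 to 692 CPM in ileum WT and 192 to 301 CPM in colon WT crypts. Stromal markers summed to 15.6 to 28.8 CPM in colon and 16.3 to 21.8 CPM in ileum, and tuft cell markers to 19.98 to 44.1 and 23.3 to 35.1 CPM. The immune sum was higher in ileum, but the median log2 fold change of the list was -0.17. Over all genes tested, 10.2% were lower in colon. Itgam was the highest immune member per kilobase, at 1.833 CPM per kb in colon and 7.713 in ileum. The part of immune transcripts in the results was not tested. Without colon GFP 2, 1 immune gene was lower, and with the table-name block none was. Dissociation stress genes were higher for 2 and lower for 4 of 17 in colon, with a median of -0.48, and Nr4a1, an immediate early receptor, was among those higher. Nr4a1 stood at 31.7, 28.6 and 27.8 CPM in colon against 7.49, 9.06 and 5.42 CPM in ileum (log2 fold change 2.00 ± 0.27, edgeR adjusted p = 0.000168). Without colon GFP 2, colon GFP 3, ileum GFP 2 or ileum GFP 3, 1 stress gene was lower, with ileum GFP 1 left out 7 were, and with the table-name block 9. Of 32 interferon and antigen presentation genes, 1 was higher and none was lower, but without colon GFP 3, which had the largest sum of this list at 3545 CPM, 8 were lower, and with the table-name block 12.

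Absorptive genes of the small intestine also differed by region in the sorted cells. Of 39 small intestine genes, 16 were lower and 1 was higher in colon, with a median log2 fold change of -1.73, and without colon GFP 3 or ileum GFP 2 there were 10 lower. Fabp2, a fatty acid binding protein, was measured at 360, 221 and 299 CPM in colon against 1043, 1438 and 1320 CPM in ileum (log2 fold change -2.11 ± 0.26, edgeR adjusted p = 7.27e-05). Ccl25, a chemokine that recruits lymphocytes to the small bowel, stood at 11.2, 5.85 and 10.2 CPM in colon against 156, 66.6 and 59.4 CPM in ileum (log2 fold change -3.37 ± 0.36, edgeR adjusted p = 3.73e-05). Apob and Mttp, which build chylomicrons, were lower by 1.98 and 2.95. Of 33 colon genes, 23 were higher and none was lower, with a median of 3.10, or 3.00 with the 2 genes without ileal counts at their bound, and the table-name block gave 15 higher and 2 lower. Cyp2c55, a cytochrome P450 of the colon, came to 134, 196 and 386 CPM in colon against 2.21, 2.94 and 1.43 CPM in ileum (log2 fold change 6.74 ± 0.62, edgeR adjusted p = 2.2e-05). Colon GFP 1 was its lowest colon library. Enterocyte markers, which the 2 regional lists partly hold, summed to 1087 to 1743 CPM in colon and 2079 to 3238 CPM in ileum sorted cells, and 5 of 23 were higher and 8 lower in colon, with a median of -1.33, and 3 were higher in the fit alone. The part of such transcripts in the results was not tested.

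The regional difference was set beside that of WT and KO crypts, which share no library with the sorted cells. Ileum WT 1 and 2 were unlike in makeup: Paneth products summed to 13213 and 52303 CPM, and small intestine genes to 50709 and 23698 CPM. In WT crypts 1011 genes (6.62%) were higher in colon and 825 (5.40%) lower, and in KO crypts 1437 (9.41%) and 957 (6.27%). Of the 1918 genes higher in colon sorted cells, 646 were also higher in colon WT crypts, 33.7% of the first list and 63.9% of the second, and 16 were lower there. Of the 1556 lower in colon sorted cells, 382 were also lower in WT crypts, 24.6 and 46.3% of the lists, and 19 were higher. With KO crypts 751 of the higher (39.2 and 52.3%) and 371 of the lower genes (23.8 and 38.8%) were shared. Hoxb13 had a log2 fold change of 11.75 in WT crypts, Car2 8.88 and Lyz1 -8.97. Of the 26 Hox genes, 16 were higher in colon WT crypts and 16 in colon KO crypts. Of the 24 Paneth products, 17 were lower in colon WT crypts and 10 in colon KO crypts.

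The difference between the regional change in sorted cells and that in WT crypts was tested itself, as an interaction. It was called for 335 of 15274 genes (2.19%), 199 (1.30%) with colon relatively higher in sorted cells and 136 (0.890%) with colon relatively lower. In a first set of genes the sorted cells differed more by region than the crypts. Fut2 was at 312 and 328 CPM in colon against 59.9 and 87.8 CPM in ileum in WT crypts, a log2 fold change of 2.12 that was smaller than in sorted cells by 3.49 (SE 0.28, edgeR adjusted p = 2.44e-05). B3gnt6 and Gcnt1 had interaction differences of 2.93 and 3.38 (edgeR adjusted p = 0.0133 and 0.031), the second lost without colon GFP 2, ileum GFP 2 or ileum GFP 3 (0.0672 to 0.0952). The interaction of B3gnt6 was lost without colon WT 1 (0.0572), and that of Gcnt1 without colon WT 1, colon WT 2 or ileum WT 1 (0.0825 to 0.11). Gnai1, an inhibitory G protein subunit, stood at 46.6, 51.05 and 40.6 CPM in colon against 0.170, 0.490 and 0 CPM in ileum in sorted cells. In WT crypts it was measured at 3.98 and 12.6 CPM in colon against 1.14 and 3.07 CPM in ileum (interaction 5.54, edgeR adjusted p = 0.00931). Its sorted-cell difference was 7.54, and 9.01 without ileum GFP 2. Cldn2 stood at 242 and 274 CPM in colon against 296 and 212 CPM in ileum in WT crypts, where its regional difference was not called (edgeR adjusted p = 0.984, interaction 2.12, edgeR adjusted p = 0.0062). Mgat4c, a glycosyltransferase-like gene, had an interaction of 3.34 (edgeR adjusted p = 0.00087).

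A second set changed sign between the cell preparations. Slc5a1, the sodium-glucose cotransporter, came to 138, 141 and 136 CPM in colon against 63.5, 53.98 and 37.98 CPM in ileum in sorted cells. In WT crypts it stood at 220 and 193 CPM in colon against 1105 and 868 CPM in ileum, with log2 fold changes of 1.41 and -2.25 (interaction 3.67, edgeR adjusted p = 2.57e-05). Aqp1, a water channel also found in endothelium, was higher in colon by 0.94 in sorted cells and lower by 1.07 in WT crypts, both called, with an interaction of 2.01 (edgeR adjusted p = 0.00197). Klf4 was lower in colon in sorted cells and higher in colon WT crypts, at 1.72 on the log2 scale (interaction -2.62, edgeR adjusted p = 0.00163). Myof, a ferlin of membrane repair, was at 31.7, 17.1 and 22.6 CPM in colon against 74.8, 137 and 134 CPM in ileum in sorted cells. In WT crypts it stood at 55.05 and 71.7 CPM in colon against 22.6 and 30.1 CPM in ileum, with called differences of -2.27 and 1.27 (interaction -3.54, edgeR adjusted p = 0.00087). The sorted colon and ileum libraries did not overlap for any of these 4 genes, although for Klf4 colon GFP 1 and ileum GFP 1 nearly met. All 4 were called between sorted cells, and 34.5% of all genes tested did not overlap.

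In other genes the regional difference was larger in WT crypts. Anpep, an aminopeptidase of the brush border, was measured at 19.3 and 5.74 CPM in colon against 5264 and 2099 CPM in ileum in WT crypts. In sorted cells it stood at 94.5, 60.4 and 36.3 CPM in colon against 121, 257 and 202 CPM in ileum (interaction 6.6, edgeR adjusted p = 0.00169). Its sorted-cell call was lost without colon GFP 2, colon GFP 3, ileum GFP 2 or ileum GFP 3 (0.0672 to 0.115). Slc6a19, a transporter of neutral amino acids, came to 2.25 and 0.957 CPM in colon against 421 and 329 CPM in ileum in WT crypts. In sorted cells it stood at 2.13, 1.74 and 0.299 CPM in colon against 4.60, 4.41 and 3.998 CPM in ileum (interaction 6.34, edgeR adjusted p = 0.000141). Pdzk1, Treh, Slc7a15, Susd2 and Cubn were likewise more ileal in WT crypts than in sorted cells, with interactions of 9.81, 6.06, 6.01, 5.75 and 5.44, of which that of Pdzk1 is a fitted value with no colon WT count. Casp14, B3galt2 and Trpv3 were more colonic in WT crypts than in sorted cells, with interactions of -5.78, -4.00 and -3.48. The interaction of B3galt2 was not called without colon GFP 2 or colon GFP 3 (edgeR adjusted p = 0.0673 and 0.0525), nor that of Trpv3 without ileum GFP 2 (0.0528). Without colon WT 2 the interactions of Lyz2, Susd2, Cubn and B3galt2 were not called (edgeR adjusted p = 0.068, 0.0505, 0.0579 and 0.103), and without colon WT 1 those of Krt20 and Trpv3 were not (0.0888 and 0.0623). Without ileum WT 2 those of Krt20 and B3galt2 were not called, nor that of B3galt2 without ileum WT 1 (0.0681, 0.108 and 0.0981). With the table-name block Lyz2 and Cubn were not called between sorted cells (0.103 and 0.0676), and in the fit alone Slc6a19 was not (0.067). Krt20, a keratin of differentiated cells, fell to 54.9, 21.04 and 46.3 CPM in colon from 235, 703 and 576 CPM in ileum sorted cells and had a log2 fold change of -0.05 in WT crypts (interaction -3.58, edgeR adjusted p = 0.0225). Lyz2, Trim40 and Mfsd7a, each called lower in colon sorted cells and not called between WT crypts, had interactions of -5.76, -3.58 and -3.98. Sorting, genotype, cell type and the RNA makeup of the libraries differ together between the sorted and crypt libraries and cannot be told apart. Mitochondrial ribosomal RNA took 30.02 to 44.88% of gene counts in the sorted libraries and 0.14 to 0.22% in the crypt libraries.

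**Figure D5:**
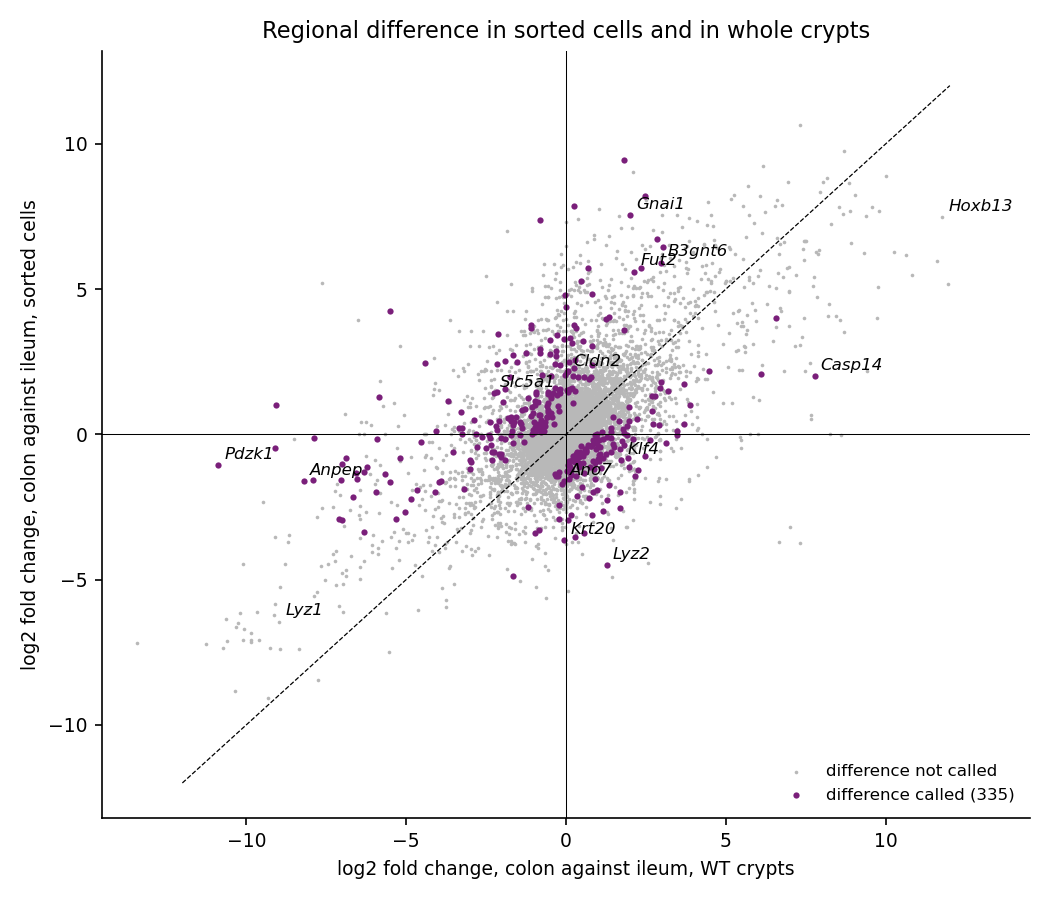
Fitted log2 fold change of colon against ileum in WT crypts (x axis) and in sorted cells (y axis), 1 point per gene tested, with the dashed line where both are equal. The 335 genes with a called difference between the 2 are purple; Fut2, B3gnt6 and Cldn2 lie above the line, Klf4, Krt20 and Lyz2 below it, and Lyz1 and Hoxb13 near the ends with no called difference.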

How the data were processed

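RNA was sequenced from 6 libraries of sorted cells and 8 of whole crypts. The submitters' processing notes name TopHat 1.4.1, HTSeq and the genome build mm9, without a role or order. No label or header names the gene annotation or the strand setting of the counting, so overlapping and antisense genes are uncertain. The values that the authors deposited are raw counts of reads per Ensembl gene, 36536 genes per library, of which 31004 were matched to a symbol. The closing lines of each table (reads outside genes, ambiguous or placed at several sites), 47.56 to 68.55% of all lines' counts in the sorted libraries, were kept out of library sizes and tests.

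Groups were taken from the sample titles. Counts of all 14 libraries were filtered by group with filterByExpr, which left 15274 genes, scaled by TMM and fitted with edgeR 4.0.16 (R 4.3.3, robust quasi-likelihood F-test, limma 3.58.1), with 1 mean per group and no block. Contrasts were colon minus ileum in sorted cells, in WT crypts and in KO crypts, and the first minus the second. Calls used a Benjamini-Hochberg adjusted p under 0.05, and a standard error is the log2 fold change over the square root of F. The biological coefficient of variation was 0.232. Folds against a group at 0 took 3 counts for the whole group as the floor, and those against 1 to 3 counts carry a 95% exact interval; floor and intervals cover counting error only. The fit was tested on simulated data.

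The 31 gene lists (764 genes, 745 matched, 651 tested) and the choice of this comparison were made with earlier results of these data known. Named genes were Atoh1, the 12 called genes per direction that differed most (a group mean of 10 CPM or more, groups apart, predicted genes left out), the 8 with the largest interaction in each direction, and members of the lists; some list members are not reported here. Region-restricted genes were chosen from the crypt libraries. Alternatives were DESeq2 1.42.0, its size factors in edgeR, no filter on low counts, library sizes that leave out genes holding over 1% of a library, the 6 sorted libraries alone, blocks by replicate number or by the string in the table names, each library left out, and 2 pairs of libraries left out. Shared 50-base windows came from GENCODE transcripts, and lengths for levels per kilobase from the merged exons of each GENCODE gene. Upstream windows came from RefSeq promoters of GRCm38.p6.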

Additional observations from a re-analysis of the deposited data

Results flagged for a closer look

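The regional change differed between sorted cells and WT crypts by the interaction test for 335 genes. Named genes more colonic in sorted cells than in WT crypts were Pdzk1 (9.81 on the log2 scale), Anpep (6.6), Slc6a19 (6.34), Treh (6.06), Slc7a15 (6.01), Susd2 (5.75), Gnai1 (5.54), Cubn (5.44), Mttp (4.07), Slc5a1 (3.67), Fut2 (3.49), Gcnt1 (3.38), Mgat4c (3.34), Ccl25 (2.94), B3gnt6 (2.93), Cldn2 (2.12), Apob (2.11), Aqp1 (2.01), St3gal4 (1.66) and Guca2b (1.31). Those more ileal in sorted cells were Casp14 (-5.78), Lyz2 (-5.76), B3galt2 (-4.00), Mfsd7a (-3.98), Trim40 (-3.58), Krt20 (-3.58), Myof (-3.54), Trpv3 (-3.48), Klf4 (-2.62), Ano7 (-1.55), Rab27a (-1.51), Sytl2 (-1.38) and B3gnt5 (-1.36). Leaving out single sorted libraries ended the interaction call of Guca2b, B3gnt5, Gcnt1, Ano7, Rab27a, Sytl2, Ccl25, Apob, Mttp, B3galt2 and Trpv3 for at least 1 library. Leaving out single WT crypt libraries ended that of each of these except Mttp, and of B3gnt6, St3gal4, Lyz2, Krt20, Susd2 and Cubn.

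Reads placed outside annotated genes form a signal that no comparison used. They made up 24.87, 31.92 and 30.01% of uniquely placed reads in colon GFP 1, 2 and 3 and 52.29, 27.78 and 31.25% in ileum GFP 1, 2 and 3, against 9.30 to 13.25% in the 8 crypt libraries.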

How the results depend on the processing

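The 6 sorted libraries alone gave 861 genes lower in colon, and 904 with a replicate block added. In the fit of all libraries the replicate block gave 2050 higher and 1709 lower. Libraries of the same number in colon and ileum deviated with correlations of 0.009, -0.093 and 0.074, so the numbers were not taken as pairs. Over single libraries left out, sorted cells gave 1413 to 2156 higher and 952 to 1805 lower, WT crypts 584 to 880 and 339 to 704, KO crypts 755 to 950 and 408 to 509, and the interaction 83 to 373 and 49 to 299. The lists' totals, 129 higher and 114 lower, moved between 104 and 132 and between 78 and 134. A block by the string in the table names gave 1782 higher and 1655 lower in WT crypts, 2268 and 1839 in KO crypts, and 600 and 635 for the interaction. For the interaction DESeq2 gave 473 and 382, no filter on low counts 663 and 430, leaving out colon GFP 1 and ileum GFP 1 gave 625 and 525, and leaving out colon GFP 1 and ileum GFP 2 gave 89 lower. The causes of these moves were not tested.

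Of 169 named genes called between sorted cells, 112 were called in all 16 alternatives and 57 were lost in at least 1; 15 others were called in some alternative, and none of the 198 named and tested reversed. With restricted genes at 50 CPM or more in WT crypts the medians were 2.18, 0.044 and 0.00449% in colon GFP 1, 2 and 3 and 2.03% in ileum GFP 2; with those at 10 CPM or more in sorted cells they were 3.56, 0.103, 0.0193 and 1.43%. The leaving out of colon GFP 1 with ileum GFP 2 and the last choice were made after seeing the data. Genes near 1 CPM rest on few counts per library, and a missing call there does not show that a gene did not differ.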

Other observations

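Genes encoded by mitochondrial DNA that code for proteins did not differ by call between sorted cells of the regions, with 0 of 7 higher or lower and a median log2 fold change of 0.21. Of 15 tuft cell markers, Ptgs1, which makes prostaglandin precursors, was lower in colon, at 1.17, 0.747 and 1.20 CPM in colon against 9.37, 2.08 and 3.57 CPM in ileum (log2 fold change -2.24 ± 0.63, edgeR adjusted p = 0.0212), a call not made without colon GFP 2, colon GFP 3 or ileum GFP 1 (edgeR adjusted p = 0.0618 to 0.109) or with the table-name block (0.089). It was named after its values were seen, as the single called member of its list.

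Further absorptive genes split by region within the sorted cells. Lgals3, a galectin of differentiated epithelium, stood at 72.8, 122 and 282 CPM in colon against 9.54, 18.5 and 13.7 CPM in ileum (log2 fold change 3.50 ± 0.44, edgeR adjusted p = 0.000153), or 2.80 on the log2 scale without colon GFP 3 and 4.11 without colon GFP 1 and ileum GFP 2 together. Slc26a3, a chloride-bicarbonate exchanger of the colonic surface, stood at 6.91, 11.2 and 34.4 CPM in colon against 6.98, 3.55 and 1.28 CPM in ileum (log2 fold change 2.16 ± 0.62, edgeR adjusted p = 0.0302), with colon GFP 1 and ileum GFP 1 overlapping. It was not called without colon GFP 3, ileum GFP 2 or ileum GFP 3 (edgeR adjusted p = 0.0725 to 0.0934) or in the fit of the sorted libraries alone (0.0999). Sis, which encodes sucrase-isomaltase, was at 11.5, 0.373 and 1.20 CPM in colon against 30.1, 79.2 and 42.5 CPM in ileum (log2 fold change -3.48 ± 0.89, edgeR adjusted p = 0.0206). The Sis difference was -6.05 without colon GFP 1 and its call was not made without colon GFP 3 or ileum GFP 2 (edgeR adjusted p = 0.0533 and 0.0526), with the table-name block (0.0939) or in the fit alone (0.123). Apoa1, an apolipoprotein of absorptive cells, stood at 28.8, 0.373 and 0.149 CPM in colon against 24.2, 67.9 and 60.5 CPM in ileum and was not called (edgeR adjusted p = 0.201), with colon GFP 1 within the ileal range, and was called without colon GFP 1 at -7.50 (0.000104).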
